A study of Mus musculus with 8 samples.

Results

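Loop and distal nephron genes were followed in whole embryonic mouse kidneys as 8 genes taken by name: the transcription factors Tfap2a, Tfap2b and Mecom, the nuclear receptors Esrrb and Esrrg, the secreted proteins Umod and Wfdc2, and the potassium channel Kcnj1. All 8 were found in the table of 21291 gene rows, and 6 of them passed the filter on low values that left 14974 genes for testing. Polyadenylated RNA came from snap-frozen kidney pairs of embryos at E14.5 (embryonic day), with 4 control and 4 mutant libraries. Controls were Six2-GFPcre tg/+ with Etv4+/- and Etv5fl/fl, and mutants were Six2-GFPcre tg/+ with Etv4-/- and Etv5fl/fl. Every embryo therefore carried the Cre transgene, which is active in nephron progenitors, together with both floxed Etv5 alleles, and by the labels the groups differed only at Etv4. The Etv4 null alleles are not limited to the nephron lineage, so a difference between the groups can arise in any cell of the kidney.

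The nephron tubule is patterned from proximal to distal as it forms. Its intermediate part becomes the loop of Henle, which takes up salt without water and dilutes the urine, and the segments after it, the distal convoluted and connecting tubules, set the final salt, potassium and calcium balance before urine reaches the collecting duct. The transport proteins of these segments appear as the tubules mature, after the transcription factors that mark their precursors.

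Library facts that bear on the values are few. Total estimated counts ran from 15515139 in control 4 to between 34114519 and 39548327 in the other libraries, so 1 count stood for 2.77 normalized counts in control 4 and for 0.790 to 0.932 elsewhere. Control 4 also gave 18.4% of its counts to Lars2, against 0.138% to 0.476% in the other 7 libraries, so the tested differences that rest on it are given with and without it. Etv4 was 2311 to 2816 normalized counts in controls and 164 to 294 in mutants. The Y-linked gene Ddx3y was above 1550 in every control and at 0 in every mutant, so genotype and embryo sex cannot be told apart in these 8 libraries. The library names carry a number that the labels do not explain, by which the libraries are called L755 (controls 1 and 2 and mutants 1 and 2), L775 (control 3), L759 (mutant 3) and L816 (control 4 and mutant 4). A proximal tubule score, the mean log2(normalized count + 1) over 11 marker genes, was 2.43, 4.24, 3.74 and 7.49 in controls 1 to 4, against 3.90, 4.87, 7.33 and 8.77 in mutants 1 to 4. The score was highest in the L816 pair and in mutant 3. Which embryos shared a litter is not stated, so p-values treat the 8 kidney pairs as independent and measure the spread among them.

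The promoters of Umod, Kcnj1 and Esrrg are shown because these 3 genes varied most over the 8 libraries, with an SD of at least 1 on the log2 scale. Each sequence runs from 250 bases upstream of a RefSeq transcript start to 20 bases into the transcript, on GRCm38.p6, in lower case with motif matches in capitals. Umod lies on the minus strand of chromosome 7 at 119462711 to 119479282, and its window is chr7:119479243-119479512. Kcnj1 lies on the plus strand of chromosome 9 at 32372493 to 32399197, and its window is chr9:32393735-32394004. Esrrg lies on the plus strand of chromosome 1 at 187608791 to 188214885 and has 4 windows, of which chr1:187651991-187652260 is shown, chosen after its matches were seen.
Umod: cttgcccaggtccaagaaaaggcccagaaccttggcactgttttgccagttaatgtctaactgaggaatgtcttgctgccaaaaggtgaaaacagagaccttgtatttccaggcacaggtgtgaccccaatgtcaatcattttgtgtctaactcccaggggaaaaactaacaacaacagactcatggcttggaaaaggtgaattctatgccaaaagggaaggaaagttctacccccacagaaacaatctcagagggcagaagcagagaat
Kcnj1: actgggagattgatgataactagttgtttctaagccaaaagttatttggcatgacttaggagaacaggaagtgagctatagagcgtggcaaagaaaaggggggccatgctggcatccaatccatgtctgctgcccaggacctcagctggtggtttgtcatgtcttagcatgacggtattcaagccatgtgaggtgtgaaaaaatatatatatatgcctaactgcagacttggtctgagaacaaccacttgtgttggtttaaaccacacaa
Esrrg: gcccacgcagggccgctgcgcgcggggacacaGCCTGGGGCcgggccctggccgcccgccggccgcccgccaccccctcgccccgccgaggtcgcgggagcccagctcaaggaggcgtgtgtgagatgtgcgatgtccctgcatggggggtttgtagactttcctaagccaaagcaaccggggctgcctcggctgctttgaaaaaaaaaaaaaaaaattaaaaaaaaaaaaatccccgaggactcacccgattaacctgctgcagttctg
The capitals in Esrrg mark GCCTGGGGC, a match to the AP-2 palindrome GCCNNNGGC, the letters bound by the factors that Tfap2a and Tfap2b encode.

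Each motif was searched on both strands in 300-base windows (250 upstream, 50 transcribed) of all 8 genes, 15 windows in all. GCCNNNGGC was in 4 windows, against 16.6% of 32851 windows of all genes, but 2 of the 4 are overlapping Wfdc2 windows that hold the same match. Counted by gene, it was in 3 of the 8 (Esrrg, Umod and Wfdc2), against 18.5% of 27025 genes, and the Umod match falls outside the stretch printed above. AAGGTCA, the element bound by estrogen-related receptors, was in 0 of the 15 windows, against 4.72% of all windows. Neither motif contains the other. A match is a description of letters in these windows only.

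The 8 genes covered a wide span of expression. To set levels between genes, normalized counts were divided by the length in kilobases of the longest coding transcript in GENCODE M21, and the values in this paragraph are levels on that scale. Wfdc2, a secreted protein of the whey acidic protein family found in many epithelia, had the highest mean at 2046 per kilobase and ranged from 1290 to 3703 over the 8 libraries. Mecom, a zinc finger transcription factor, followed at 601 (range 434 to 697), and the ranges of Wfdc2 and Mecom did not overlap. Next came Tfap2a at 99.3 (42.6 to 126), below every value of Mecom. Esrrg at 59.6 (15.7 to 153) and Tfap2b at 57.2 (44.5 to 75.1) overlapped each other and Tfap2a, and the order of Esrrg and Tfap2b turned when the median transcript length was used. Esrrb, Umod and Kcnj1 were the lowest, at means of 4.29, 3.77 and 3.12, with overlapping ranges that reached 0 for Umod and Kcnj1. The plot of levels per kilobase shows this order.

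**Figure D1:**
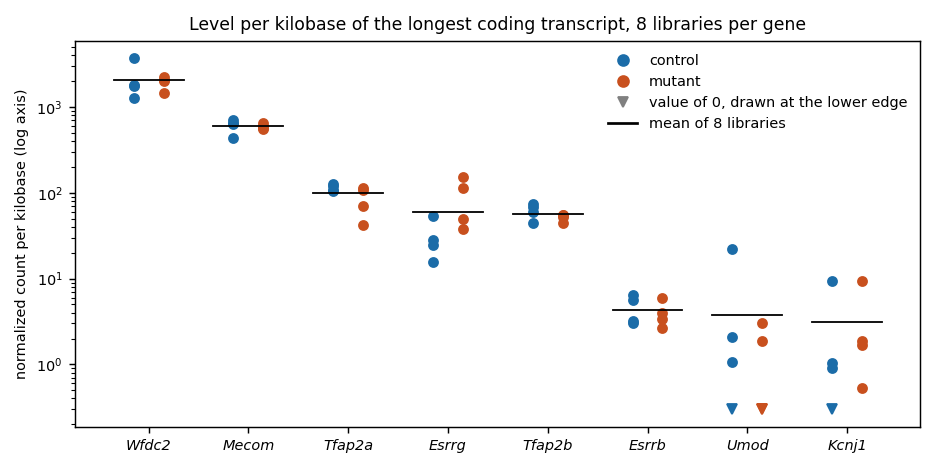
Level of each gene in normalized counts per kilobase of its longest coding transcript (log axis), 1 point per library, controls in blue and mutants in orange, with a line at the mean of 8 libraries; triangles at the lower edge stand for values of 0, and 2 mutant triangles for Umod lie on each other. Wfdc2 and Mecom form separate steps above the rest, Tfap2a overlaps Esrrg and Tfap2b, and Esrrb, Umod and Kcnj1 lie together at the bottom.

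Between mutants and controls, 0 of the 6 genes tested passed the threshold of 0.05 on the adjusted p (limma, two-sided, Benjamini-Hochberg over all 14974 genes), where 0.301% of all genes tested passed in either direction, 0.0801% being higher and 0.22% lower in mutants. Only Esrrg had an unadjusted p under 0.05, where 12% of all genes tested did. The median log2 difference of the 6 was -0.10, beside 0.0087 over all genes tested, with 1 gene above 0 and 5 below. In none of the 8 genes did the control and mutant values stand apart without overlap, where 8.6% of all genes tested did so, 4.17% with the mutants higher. The plot of normalized counts by library shows each value.

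**Figure D2:**
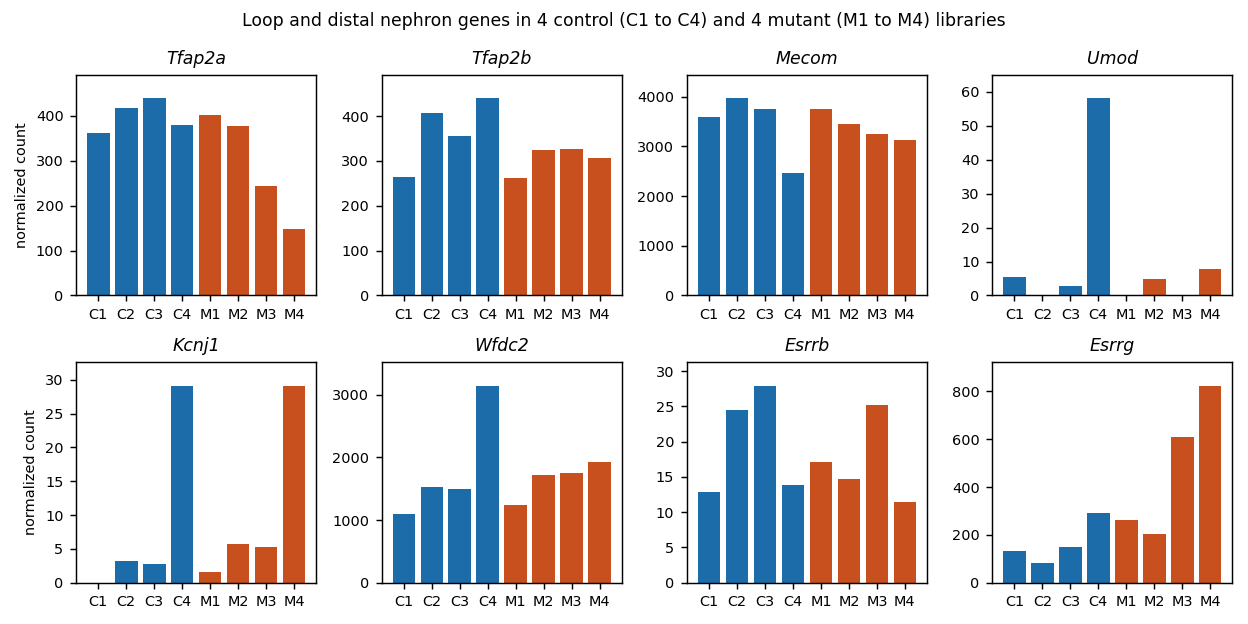
Normalized counts of the 8 genes, 1 bar per library, in 4 control (C1 to C4, blue) and 4 mutant (M1 to M4, orange) kidney pairs, each panel with its own axis from 0. Esrrg was highest in M3 and M4, Tfap2a lowest in them, Umod stood out in C4 and Kcnj1 in C4 and M4.

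Tfap2a encodes AP-2 alpha, a transcription factor of ectoderm, neural crest and several epithelia, and lies on the minus strand of chromosome 13 at 40715302 to 40738376. Its normalized counts were 362, 418, 439 and 379.6 in controls 1 to 4, against 402, 377, 244 and 149 in mutants 1 to 4. Mutants 1 and 2 lay within the control range, and mutants 3 and 4 lay below it. Mean values were 399.6 ± 35.0 (SD, n = 4) in controls and 293 ± 119 (SD, n = 4) in mutants, and the log2 difference of -0.55 (SE 0.28) did not pass the threshold (limma adjusted p = 0.487). Within the 4 L755 libraries it was 0.0020 (SE 0.15), and in the single L816 pair the mutant was lower by a log2 difference of -1.35. The limma interaction between genotype and library number was -1.35 (SE 0.28), with an adjusted p of 0.168 and 1 library of each genotype on the L816 side.

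Tfap2b encodes AP-2 beta, a related factor of the distal nephron, collecting duct and sympathetic neurons, on the plus strand of chromosome 1 at 19208914 to 19238576. Normalized counts were 263, 406, 355 and 440.0 in controls 1 to 4, against 261, 325, 327 and 306 in mutants 1 to 4. The groups overlapped, and control 1 and mutant 1 were both the lowest of their group. Its log2 difference was -0.24 (SE 0.17, limma adjusted p = 0.619). Among the AP-2 paralogs, Tfap2c was low at 2.77 to 61.2 normalized counts over the 8 libraries, Tfap2e was above 0 in mutant 3 only, at 4.35, and Tfap2d was not analysed here.

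AP-2 genes are also expressed in neural crest derivatives and surface ectoderm, so markers of such cells were read beside them. Sympathetic and chromaffin cell markers summed to 545 to 764 normalized counts over 7 genes in controls and 260.4 to 642 in mutants. The Schwann and neural crest markers summed to 965 to 1371 over 6 genes in controls and 933 to 1249 in mutants, with Foxd3 below 10 in all libraries. Surface epithelium markers summed to 38.7 to 76.6 over 3 genes in controls and 34.3 to 69.4 in mutants, with Krt14 below 10 throughout. In the test of mutants against controls, 0 of the 3, 4 and 2 tested genes of these lists passed. The part of such cells in the AP-2 values was not tested.

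Mecom, also known as Evi1 and Prdm3, marks the distal nephron and collecting duct as well as blood vessels and blood stem cells, and lies on the minus strand of chromosome 3 at 29951296 to 30548008. It had 3584, 3969, 3749 and 2469 normalized counts in controls 1 to 4, against 3754, 3453, 3241 and 3124 in mutants 1 to 4. Control 4 was the lowest of all 8 libraries, and the other 7 lay between 3124 and 3969. The log2 difference between mutants and controls was -0.0011 (SE 0.14, limma adjusted p = 0.998), and without control 4 it was -0.15 (SE 0.079, adjusted p = 0.332). Endothelial markers, of which 0 of 7 passed, summed to 14137 to 18544 normalized counts in controls and 19449 to 22484 in mutants, and their part in the Mecom values was not tested.

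Esrrg encodes the estrogen-related receptor gamma, an orphan nuclear receptor known for driving genes of mitochondrial energy metabolism. Its normalized counts were 133, 84.5, 151 and 291 in controls 1 to 4, against 263, 206, 609 and 825 in mutants 1 to 4. Controls 1 to 3 lay below every mutant, while control 4 lay above mutants 1 and 2, so the groups overlapped through that library. Means were 165 ± 88.5 (SD, n = 4) in controls and 475 ± 293 (SD, n = 4) in mutants, a ratio of 2.89. The log2 difference was 1.44 (SE 0.49) with a limma adjusted p of 0.269, the 809th smallest unadjusted p (0.0146) of the 14974 genes tested. Without control 4 it was 1.76 (SE 0.46, limma adjusted p = 0.0953), still not past the threshold, where 1.13% of 14801 genes passed.

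The sign of the Esrrg difference was the same in each subset. Within the L755 libraries, controls 1 and 2 lay below mutants 1 and 2, with a log2 difference of 1.13 (SE 0.29, limma adjusted p = 0.33), and in the L816 pair it was 1.5. With the proximal tubule score as a covariate it was 0.87 (SE 0.30, limma adjusted p = 0.151). In the authors' deposited table of 644 genes, Esrrg was the only one of the 8 genes listed, with a log2 fold change of 1.96 (standard error 0.577) and an adjusted p of 0.0172. The mean normalized counts in the authors' deposited table matched, within 1%, those computed without control 4 for 626 of 628 genes compared, and those from all 8 libraries for 4 of 628. The Esrrg log2 fold change in that table therefore compares with the difference without control 4. Its adjusted p does not compare directly, since the submitters' notes name DESeq2 and not limma.

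Esrrb, the beta receptor of the same family and a factor of pluripotent stem cells, lies on the plus strand of chromosome 12 at 86361117 to 86521628. It was low, at 12.9, 24.5, 28.0 and 13.8 normalized counts in controls 1 to 4, against 17.1, 14.7, 25.3 and 11.4 in mutants 1 to 4. Its groups overlapped throughout, with a log2 difference of -0.18 (SE 0.46, limma adjusted p = 0.914). Esrra, the alpha receptor and a broad regulator of mitochondrial genes, ran from 404 to 621 normalized counts over the 8 libraries, with a log2 difference of 0.14 (SE 0.15, limma adjusted p = 0.749). Gonad and germ cell markers, read beside Esrrb for its place in germ and stem cells, summed to 8.29 to 55.4 normalized counts over 5 genes in controls and 8.71 to 35.1 in mutants, with Foxl2 and Pou5f1 below 10 in all libraries.

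Umod encodes uromodulin, the most abundant urinary protein and the classic product of the thick ascending limb. It had at most 6 estimated counts in 6 of the 8 libraries: the counts were 6, 0, 3 and 21 in controls 1 to 4, against 0, 6, 0 and 9 in mutants 1 to 4. On the normalized scale these are 5.53, 0, 2.80 and 58.1 in the controls, against 0, 4.90, 0 and 7.91 in the mutants. Control 4 stood above all others, with an exact 95% Poisson interval of 36.0 to 88.8 normalized counts that covers counting error only. A count of 0 allows, by the same interval, up to 2.91 normalized counts in control 2 and up to 3.01 and 3.21 in mutants 1 and 3. Taking 3 counts as the floor, it is 2.37, 2.45 and 2.61 in these libraries. Without control 4 the controls were at 0 to 5.53 and the mutants at 0 to 7.91, which overlap. Umod did not pass the filter on low values, so no difference is given.

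Kcnj1 encodes ROMK, the potassium channel that returns potassium to the lumen of the thick ascending limb and secretes it in the collecting duct. Normalized counts were 0, 3.16, 2.80 and 29.1 in controls 1 to 4, against 1.63, 5.71, 5.23 and 29.0 in mutants 1 to 4. Control 4 and mutant 4 were nearly equal and stood above the other 6 libraries, with exact 95% Poisson intervals of 15.2 to 54.5 in control 4 and 19.97 to 40.7 in mutant 4, taken on whole counts. The count of 0 in control 1 allows up to 3.40 normalized counts by the same interval. Kcnj1 did not pass the filter for the comparison of genotypes, so no difference is given.

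Wfdc2 lies on the plus strand of chromosome 2 at 164562413 to 164568510. Its normalized counts were 1095, 1525, 1497 and 3144 in controls 1 to 4, against 1242, 1718, 1753 and 1924 in mutants 1 to 4. Control 4 was the highest library, and the other 7 lay between 1095 and 1924. The log2 difference was -0.03 (SE 0.28, limma adjusted p = 0.977) with all libraries and 0.27 (SE 0.17, limma adjusted p = 0.406) without control 4. Ureteric trunk and collecting duct markers, of which 0 of 14 passed between genotypes, summed to 16631 to 26523 normalized counts in controls and 21945 to 32318 in mutants, with the highest control sum in control 4. In whole kidneys, fewer cells of a type and less RNA per cell cannot be told apart for any of these genes.

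Markers of other cell types were read in the same comparison. Nephron progenitor markers summed to 14530 to 28669 normalized counts in controls and 2591 to 8115 in mutants, with differences below 0 for 6 of 6 genes, 2 of them past the threshold. Without control 4, 4 of the 6 passed as lower. Proximal tubule markers summed to 319 to 6333 in controls and 889 to 17927 in mutants, with 0 of 7 tested genes passing, and podocyte markers to 3296 to 7055 and 5288 to 14625, with 0 of 7 passing. Adrenal cortex markers summed to 223 to 366 and 178 to 298, with 0 of 4 passing. Their part in the values of the 8 genes was not tested.

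**Figure D3:**
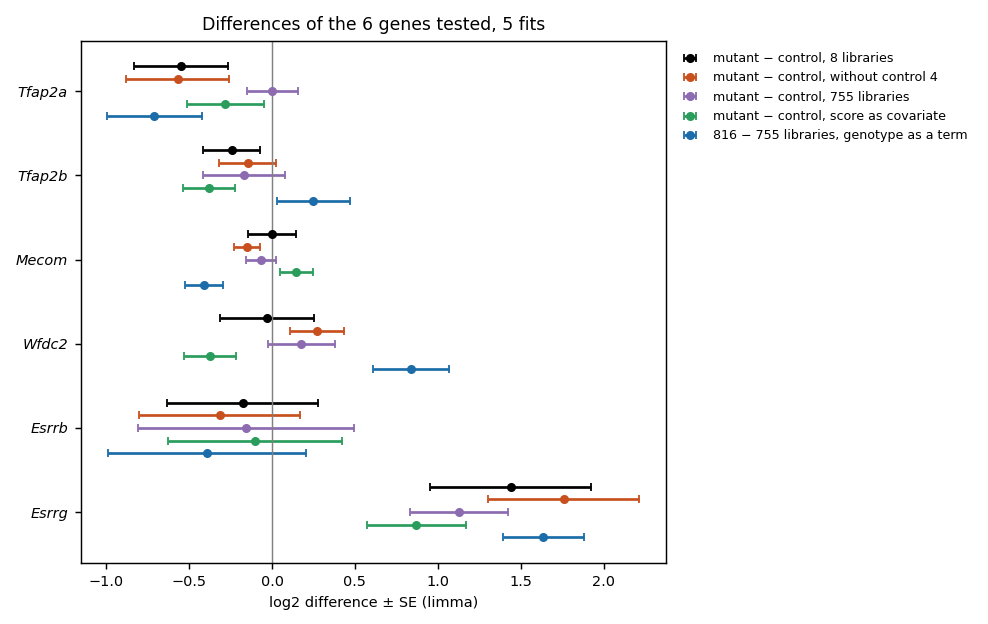
Log2 differences with limma standard errors (bars) for the 6 genes tested, in 5 fits: mutants minus controls with all 8 libraries, without control 4, within the L755 libraries and with the proximal tubule score as a covariate, and L816 minus L755 libraries with genotype as a term. Esrrg lies above 0 in all 5, and Wfdc2, Tfap2b and Mecom lie on different sides in different fits. Tfap2a is at 0.0020 within the L755 libraries and below 0 in the other fits.

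A second comparison set the L816 libraries against the L755 libraries, the only 2 numbers present in both genotypes, with genotype as a term and 15614 genes tested over 6 libraries. Esrrg was the only one of 7 tested genes past the threshold and was higher in L816, where 5.16% of all genes tested were higher and 6.19% lower. Kcnj1 was among the 7 only through the L816 libraries, since the filter for this comparison asked for 10 normalized counts in 2 libraries. With Kcnj1 included, an unadjusted p under 0.05 was given to 5 of the 7, beside 30.6% of all genes tested (limma). Esrrg values were 133, 84.5, 263 and 206 in the L755 libraries and 291 and 825 in the L816 libraries, which did not overlap. The log2 difference was 1.64 (SE 0.24, limma adjusted p = 0.013). Without control 4 the L816 side is mutant 4 alone, which is assumed to vary like the other libraries, and the difference of 1.82 (SE 0.33) no longer passed (limma adjusted p = 0.0548). The call was also lost with eBayes run without a trend (limma adjusted p = 0.0835) and with no depth correction, where the difference was 0.74 (SE 0.59, limma adjusted p = 0.324). The interaction with genotype was 0.37 (SE 0.48, limma adjusted p = 0.737), so a difference in the Esrrg genotype effect between the numbers was not detected.

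Wfdc2 and Mecom lay near the threshold in that comparison. Wfdc2 was at 0.84 (SE 0.23, limma adjusted p = 0.0531), and 0.40 without control 4 (adjusted p = 0.38). Mecom was at -0.41 (SE 0.11, limma adjusted p = 0.0566), and -0.20 without control 4 (adjusted p = 0.308). Kcnj1, which its 2 high libraries alone brought past the filter, is given as values with no test: 29.1 and 29.0 in the L816 libraries, against 0 to 5.71 in the L755 libraries. Without mutant 4, Wfdc2 was at 1.28 (limma adjusted p = 0.0224) and Mecom at -0.61 (limma adjusted p = 0.0184), so both passed where control 4 alone stood for the L816 side.

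Tfap2a lay on the other side, below 0, in the L816 comparison. With control 4 its log2 difference was -0.71 (SE 0.28, limma adjusted p = 0.138), and without control 4 it was -1.38 (SE 0.21, limma adjusted p = 0.0368), the only one of the 6 genes tested past the threshold there. Without mutant 4 it was -0.035 (SE 0.19, limma adjusted p = 0.914), so the difference rests on mutant 4. In the fit without control 4, 0.718% of 15317 genes were lower and 0.947% higher. Control 4, at 379.6 normalized counts, lay within the range of the L755 libraries, and mutant 4, at 149, far below it. Tfap2b was at 0.25 (SE 0.22, limma adjusted p = 0.485) and Esrrb at -0.39 (SE 0.60, limma adjusted p = 0.696). Umod did not pass the filter.

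Markers of other kidney parts also differed between the L816 and L755 libraries. Mutant 3 (L759) is outside this comparison. Its marker sums were 6878 for the proximal tubule and 10857 for podocytes, above the 6333 and 7055 of control 4. All 9 tested proximal tubule markers passed as higher in L816, although 3 of the 9 (Slc34a1, Slc5a2 and Slc22a6) met the filter only through the L816 libraries and had to differ, and the sum over the 11 markers was 319, 940.0, 889 and 1223 in the L755 libraries and 6333 and 17927 in the L816 libraries. Of the podocyte markers 5 of 8 passed as higher, some of them in the test only through L816, and of the ureteric trunk and collecting duct markers 8 of 14. Without control 4 fewer genes passed, 3 of 7, 4 of 7 and 1 of 14, where 0.947% of all genes passed as higher in place of 5.16%. Without control 4, mutant 4 alone stands for the L816 side. The ureteric trunk median over 14 genes was then 0.73, and 0.69 with control 4. The proximal tubule median was 4.37 over 7 genes without control 4 and 4.94 over 9 with it, so these medians cover different sets of genes. Of 6 nephron progenitor markers 5 had differences below 0 and 2 passed as lower, and without control 4 these counts were 4 and 3. Their part in the Esrrg, Kcnj1, Umod and Wfdc2 values was not tested.

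The plot of each gene against the proximal tubule score puts these values side by side, with no correlation computed because the libraries fall into separate clusters on the score. Controls 1 to 3 and mutants 1 and 2 lay at scores of 2.43 to 4.87, and control 4, mutant 3 and mutant 4 at 7.33 to 8.77. Esrrg in the 3 libraries of high score was 291, 609 and 825 normalized counts, against 84.5 to 263 in the other 5. Control 4, at 291, lay close to mutant 1, at 263. Wfdc2 in the same 3 was 3144, 1753 and 1924, against 1095 to 1718 in the other 5, a narrow gap. Mecom was lower in them, at 2469, 3241 and 3124, against 3453 to 3969. Tfap2a in mutants 3 and 4 was 244 and 149, but control 4, at a like score to mutant 3, was at 379.6. Kcnj1 was 29.1 and 29.0 in control 4 and mutant 4 but 5.23 in mutant 3, within reach of the low libraries. Umod was at 0 in mutant 3 and 7.91 in mutant 4, so a high score did not go with a high Umod value in every library. Tfap2b and Esrrb in the high-score libraries lay within the span of the rest, apart from control 4 for Tfap2b and mutant 4 for Esrrb.

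**Figure D4:**
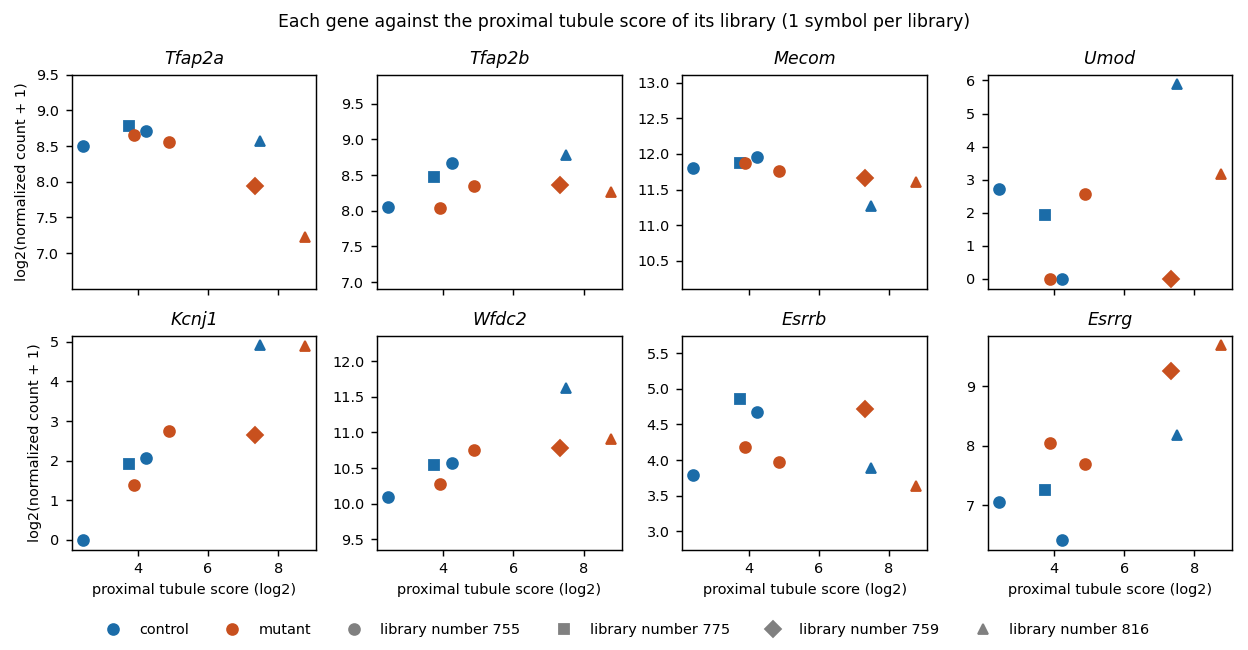
Log2(normalized count + 1) of each gene (vertical) against the proximal tubule score of its library (horizontal, log2), 1 symbol per library, colour for genotype and shape for the number in the library name. Esrrg is highest and Tfap2a lowest in mutants 3 and 4, and Kcnj1 is high in both L816 libraries but not in mutant 3.

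Transcription factors of the intermediate and distal nephron segments came from a list of 11, all tested. Between genotypes 0 of 11 passed, 10 of 11 had differences above 0, and the median was 0.60, beside 0.0087 over all genes tested. In the L816 libraries 10 of 11 differences were above 0. As higher 5 of 11 passed and as lower 0, beside 5.16% and 6.19% of all genes tested. Irx1, Irx2, Emx1 and Sim2 were among the 5. Without control 4 0 of 11 passed, but the differences were about as large, with a median of 0.96 in place of 0.87. Irx1, an Iroquois transcription factor of the intermediate nephron, was at 12.9, 129, 48.5 and 794 normalized counts in controls 1 to 4, against 26.9, 41.6, 619 and 1219 in mutants 1 to 4. It was high in control 4, mutant 3 and mutant 4, and differed by 4.69 (SE 0.76, limma adjusted p = 0.0145). Irx2 was at 3.44, Sim2 at 2.57 and Emx1 at 1.61. Without control 4 Irx1 was at 5.14, Irx2 at 3.30, Sim2 at 2.20 and Emx1 at 1.75. Emx2 and Pou3f3, among the most abundant of the list at 1132 to 2272 and 884 to 2407, did not pass in either comparison.

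Genes for loop transport and signalling numbered 12, of which 10 were tested between genotypes and 0 passed, with 5 above and 5 below 0 and a median of -0.05. In the L816 libraries 7 of 11 tested had differences above 0 and 3 passed as higher, beside 5.16% of all genes tested. Without control 4, with mutant 4 alone on the L816 side, the median was 1.27 over 10 genes in place of 0.91 over 11. Some of the 11, Slc12a1 among them, met the filter only through the L816 libraries, and Slc12a1 is 1 of the 3 that passed. Slc12a1, the NKCC2 salt carrier of the thick ascending limb and target of loop diuretics, was at 0, 14.2, 0 and 332 normalized counts in controls 1 to 4, against 1.63, 0, 35.7 and 207 in mutants 1 to 4. Both L816 libraries stood above the other 6, and no test is given because the filter let the gene in through them. Cldn10, a tight junction claudin, differed by 3.63 (SE 0.49, limma adjusted p = 0.01). Cldn19, which passes calcium and magnesium together with Cldn16, differed by 3.08 (SE 0.55, limma adjusted p = 0.0177). Tmem72, Ppp1r1a and Ptger3, the most abundant of the list, did not pass in either comparison. Egf was at most 3.16 normalized counts.

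Distal convoluted and connecting tubule genes numbered 14, of which 11 were tested between genotypes and 0 passed, with 8 above and 3 below 0 and a median of 0.25. In the L816 libraries 5 of 12 differences were above 0. Of the 12, 1 passed as higher and 1 as lower, beside 5.16% and 6.19% of all genes tested. Fxyd2, the gamma subunit of the sodium pump, was at 22.1, 38.7, 20.5 and 910.5 normalized counts in controls 1 to 4, against 34.3, 34.3, 237 and 1341 in mutants 1 to 4. Its difference of 5.08 (SE 0.30, limma adjusted p = 0.000523) also passed without control 4, at 5.25 (SE 0.47, limma adjusted p = 0.0138). Wnk1, a kinase that sets salt transport, was lower by a log2 difference of -0.61 (limma adjusted p = 0.0471), with 3900 normalized counts in control 4 and 6101 to 8284 in the other 7, and it did not pass without control 4. The calcium-binding protein gene Calb1 had 8206 to 11499 normalized counts in controls and 10285, 9864, 7427 and 6068 in mutants 1 to 4, the lowest values being in mutants 3 and 4 as for Tfap2a. Which cells of the kidney gave the Calb1 counts was not tested.

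Some genes of the mature distal convoluted tubule were near the floor. Slc12a3, the NCC salt carrier and target of thiazides, was at most 15.7 normalized counts, Pvalb was above 0 in control 3 only, at 5.59, and the calcium channel gene Trpv5 was at most 15.7. Other genes of this list reached higher values, with Trpm6 at 11.1 to 73.5, Kl at 3.16 to 63.3 and Wnk4 at 783 to 1521 normalized counts. The calcium exchanger gene Slc8a1, which heart and vessels also express, had 2139 to 3568 normalized counts. With Umod and Kcnj1 near the floor in most libraries too, the label of a loop and distal group rests here on the known sites of these genes, and no segment was isolated. Among the paralogs, 1 of 2 tested was lower in the L816 libraries, Tfap2c at -2.36 (SE 0.61, limma adjusted p = 0.0458), and it did not pass without control 4.

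**Figure D5:**
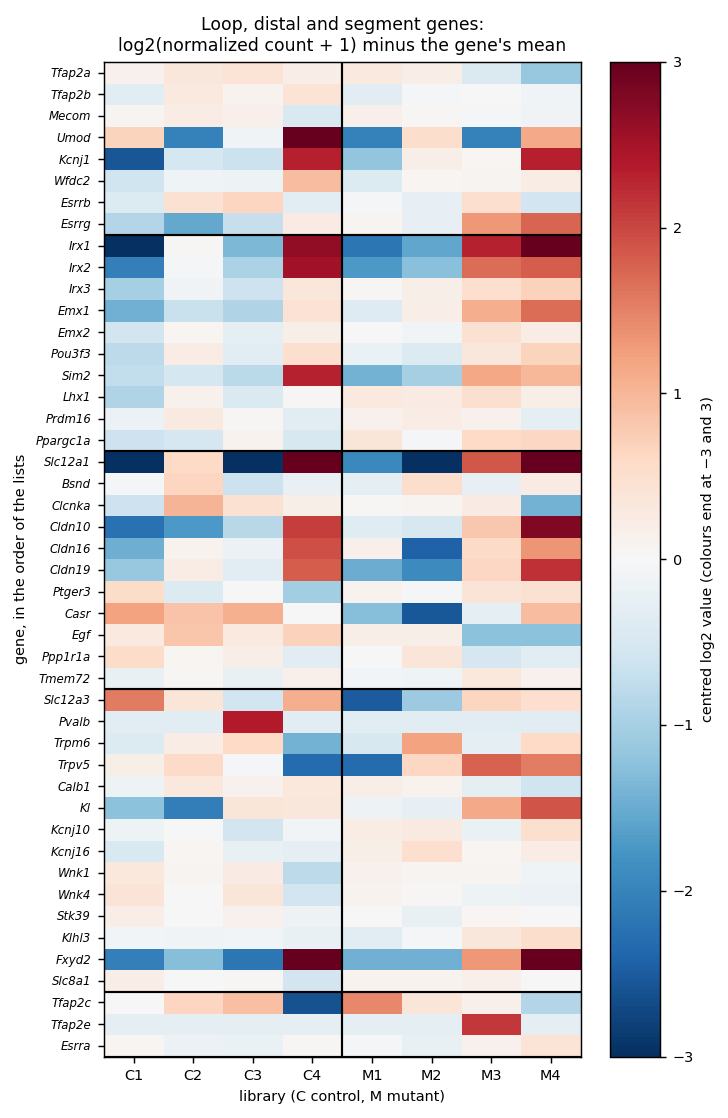
Log2(normalized count + 1) minus the mean of each gene over the 8 libraries, genes in rows by list (the 8 genes, 10 segment transcription factors, 11 loop genes, distal genes and paralogs, split by lines) and libraries in columns, controls left of the line and mutants right; colours end at -3 and 3. Irx1, Slc12a1 and Fxyd2 are dark red in C4 and M4 and red in M3, and Esrrg is red in M3 and M4.

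The authors' deposited table listed 3 of these neighbours with the highest log2 fold changes, Fxyd2 at 3.92 (adjusted p = 0.0455), Cldn10 at 2.96 (adjusted p = 0.00744) and Emx1 at 1.84 (adjusted p = 0.00586). Irx3 at 0.91 (adjusted p = 0.000813) and Lhx1 at 0.65 (adjusted p = 0.0184) were also listed in the authors' deposited table. In the limma fit with all 8 libraries none of these 5 genes passed. Without control 4, the set of libraries that the authors' means matched, none passed either. The limma adjusted p then ran from 0.0786 for Irx3 to 0.297 for Fxyd2. The submitters' notes name DESeq2 and not limma, so the adjusted p-values of the authors and of limma do not compare directly. The Lhx1 values, 717 to 1456 in controls and 1522 to 1869 in mutants, did not overlap, and Irx3 and Lhx1 are named for their place in that table.

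For the 3 of the 8 genes whose log2 values had an SD of at least 1 over the libraries, the genes with the most similar pattern were found among 14099 candidates by the root mean square difference of centred log2 values over 8 libraries. For Esrrg these were Steap2 at 0.36, Aoc1 at 0.37 and Gdpd2 at 0.37. Steap2, a metalloreductase gene, had 269 to 534 normalized counts in controls and 438, 432, 1002 and 1461 in mutants 1 to 4. For Kcnj1 they were Ihh at 0.45, Slc23a1 at 0.48 and Stk32b at 0.48. Slc23a1, the vitamin C transporter gene of the proximal tubule, had 77.6 and 164 normalized counts in control 4 and mutant 4 and 2.77 to 53.0 elsewhere. The pattern of Umod was nearest to H3c1 at 0.55, Derpc at 1.01 and H3c4 at 1.03, and the histone gene H3c1 was at 478 in control 4 and 4.14 to 33.0 elsewhere, so the likeness rests on that library.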

How the data were processed

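PolyA-selected RNA from 4 control and 4 mutant kidney pairs was sequenced, and groups follow the sample titles. The submitters' processing notes name mm10 as genome build and fastp 0.23.2, kallisto 0.46.0 and DESeq2 1.40.2 as tools, without settings. The authors deposited log2 values for 21291 gene rows. The plan took them as depth-corrected. Judged from the values, each is instead the log2 of 1 plus an estimated count without any such correction, with 73.4% whole within 1e-06. Recovered counts were therefore scaled with median-of-ratios size factors (0.361 in control 4 to 1.27 in control 2). The authors' deposited second table holds, per the file headers, the mean normalized count as a signal, the log2 fold change, the test statistic as a score, and p-values, for 644 genes.

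Tests ran in limma 3.58.1 (R 4.3.3; eBayes with trend, two-sided, Benjamini-Hochberg over all genes tested, threshold 0.05) on log2 of the normalized count plus 1, a scale that understates changes of low genes. The filter asked for 10 normalized counts in 4 or more libraries (2 or more of 6 for the library number). Named are the 8 genes and, from each other list, those past the threshold, the 3 of highest mean and the 2 of widest range; for genes with an SD of at least 1, also the 3 of most similar pattern. The choice of Lars2, Egf, Slc12a3, Pvalb, Trpm6, Kl, Wnk4, Irx3 and Lhx1 was made after seeing their values. The 8 genes, the lists, the library number comparison and the markers were chosen with earlier results of these data known. Etv4 and Ddx3y were read as checks of the labels. Positions come from GENCODE M21 on GRCm38, promoters from RefSeq on GRCm38.p6; all 8 genes matched. A few genes of the lists and 1 motif are not reported here. The steps were tested on simulated data. Replicate numbers in the titles were not taken as pairs. Alternatives covered filters, pseudocounts, scaling, voom, trend, thresholds, blocks, subsets, a covariate and each library left out in turn; those that leave out control 4 and change a further choice were added after seeing the data. Figures used matplotlib 3.10.9 in Python 3.11.15.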

Additional observations from a re-analysis of the deposited data

Results flagged for a closer look

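In 5 cases 1 library of a group of 4 lay farther from the rest than Dixon's 95% critical value for 4 samples, on the ratio of its gap to the whole range, allows. Chance alone picks out about 1 in 20 such groups, and 16 groups were checked for the 8 genes. Umod had its highest control value in control 4, at 58.1 normalized counts, and the other controls were at 5.53 or less. Kcnj1 also had its highest control value in control 4, at 29.1, and its highest mutant value in mutant 4, at 29.0, with the other 6 libraries at 5.71 or less. The share of counts from Lars2 was highest in control 4, at 18.4%. Etv4 was lowest among controls in control 4, at 2311 normalized counts.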

How the results depend on the processing

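Of the 8 genes, 0 passed between genotypes under all but 2 of the 26 alternatives: Esrrg alone made the count 1 with no depth correction (1.91, limma adjusted p = 0.0141) and with the replicate block. Over its 25 alternatives the Esrrg difference stayed above 0, from 0.84 to 1.91, with adjusted p from 0.0141 to 0.562. The labels do not say whether title numbers pair the libraries. Same-number correlations ran from -0.13 to 0.35, and 3 of 4 controls correlated best with their own number. The replicate block moved the count of genes from 45 to 133 and gave Esrrg an adjusted p of 0.0237 (limma). Leaving out 1 library gave 0 of the 8 genes each time, and 2 to 167 genes in all, the fewest without control 3 and the most without control 4. Genes past the threshold numbered 80 with no depth correction (62 higher, 18 lower), 30 with no filter, 28 with no trend, 290 with the proximal tubule score, 122 at a threshold of 0.1, 11 with total scaling, 69 with voom, 17 within the L755 libraries and 186 without both L816 libraries. Without control 4 they numbered 177 with the looser filter, 134 with voom and 78 with the score.

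No depth correction and total scaling moved the median difference of all genes to 0.48 and 0.14. Differences that changed sign, none of which passed under any alternative between genotypes, were, with no depth correction, Esrrb 0.24, Mecom 0.47, Tfap2b 0.22 and Wfdc2 0.44. With total scaling Mecom was 0.13 and Wfdc2 0.10, and Mecom was 0.018 with upper quartile scaling, 0.068 with the library number as a block and 0.15 with the score. Tfap2a was 0.0020 within the L755 libraries and 0.10 without control 4 with the score. Wfdc2 was 0.058 with voom, 0.18 within the L755 libraries, 0.19 without both L816 libraries, and without control 4 0.27 with either the looser filter or voom. With 1 library left out, Esrrb ran from -0.37 to 0.0057, Mecom from -0.15 to 0.075 and Wfdc2 from -0.24 to 0.27. The cause was not tested.

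For L816 against L755, 1771 genes became 265 with no depth correction, 812 with no filter, 72 with no trend, 3287 at a threshold of 0.1, 508 with total scaling and 215 to 2413 with 1 library left out. Of the 8 genes, 0 passed with no depth correction or no trend, 2 with a pseudocount of 8 or voom (Esrrg, and Kcnj1, which met the filter only through the L816 libraries), 2 with upper quartile scaling (Mecom and Esrrg), 4 at a threshold of 0.1 and 1 to 3 with 1 library left out. With no depth correction Tfap2b was -0.65 and Wfdc2 -0.063. Depth limits Umod and Kcnj1, whose 3-count floor is 8.30 normalized counts in control 4 and at most 2.80 elsewhere.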
